A study of Homo sapiens with 8 samples.

Results

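The oxidative phosphorylation genes of 2 human T-cell acute lymphoblastic leukemia (T-ALL) cell lines were followed after knockdown of LDB1, an adaptor protein that brings enhancers and promoters together. The members were all protein-coding genes of both count tables whose symbol matched name patterns used for subunits of the 5 respiratory complexes. Subunits named otherwise, such as CYC1 of complex III, were left out. By this rule 111 of 64252 genes were members, 98 encoded in the nucleus and 13 on the mitochondrial genome. Oxidative phosphorylation takes electrons from NADH through complex I and from succinate through complex II, passes them through complexes III and IV to oxygen, and uses the resulting proton gradient to make ATP at complex V. Complex II is wholly nuclear, whereas each of the other complexes mixes subunits made in the cytosol with subunits translated inside the mitochondrion from its own genome. The symbol rule also took in complex I assembly factors (the NDUFAF genes), which build the complex but are not part of it, tissue-restricted forms of complex IV subunits, and 2 read-through transcripts. UQCRHL, COX7A2L and ATP5IF1, an inhibitor of ATP synthase, were counted with complexes III, IV and V. Counts by complex are thus of members and not of complete subunit sets.

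The study sequenced RNA from 6T-CEM, a line derived from CCRF-CEM, and J.gamma1, a line derived from Jurkat. In each line, cells carried a lentiviral short hairpin RNA, either the control (shControl) or one against LDB1 (shLDB1), were selected with puromycin and were collected after selection. There were 4 groups of 2 libraries, 8 in all, and which of the LDB1 hairpins the sequenced cells carried is not given in the sources used here. Nothing in the labels says that the replicates came from separate cultures, so every p-value measures the spread between these libraries, which may be technical. In bulk RNA, fewer cells of a type and less RNA per cell cannot be told apart.

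Libraries held 26160492 to 30604977 counts. Levels are given as CPM, the count of a gene divided by the scaled library size and set to a common size for all 8 libraries. LDB1 itself (chromosome 10, 102106489 to 102120368) was at 107 and 111 CPM in 6T-CEM shControl and at 37.0 and 35.0 CPM with shLDB1, and at 60.2 and 58.8 against 33.2 and 30.8 CPM in J.gamma1. The level left was thus 33.0% in 6T-CEM and 53.8% in J.gamma1, and the knockdown differed between the lines (difference of log2 changes 0.70, SE 0.0946, edgeR adjusted p = 0.000237). The 9 T-ALL markers checked were all detected in every group, and their summed level was 1770 to 1860 CPM in 6T-CEM shControl against 2310 CPM with shLDB1, and 2260 against 3120 CPM in J.gamma1. Of 13 markers of other cells, 3 to 6 were at 0 in both libraries of a group, and their summed level was 25.0 to 87.9 CPM. This sum too was higher with shLDB1 in both lines (42.3 to 44.1 against 25.0 to 25.8 CPM in 6T-CEM, 87.6 to 87.9 against 71.3 to 72.6 CPM in J.gamma1), and the part of both sums in the results was not tested.

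A promoter is the stretch around a gene's start where transcription factors assemble. The promoters of 4 nuclear members are printed first because these genes show the 2 patterns described below them: NDUFA7 and NDUFA12, subunits of complex I, fell in both lines, while ATP5ME and ATP5MC1, subunits of ATP synthase, were higher with shLDB1 in J.gamma1. Each runs from 250 bases before the start to 50 bases after it (RefSeq, GRCh38.p14), with capitals for matches on either strand to 3 motifs known from promoters of respiratory genes, GCATGCGC for NRF1, CCGGAAG for the ETS family, which includes GABPA, and AAGATGGC for YY1.
NDUFA7 (chr19:8321326-8321625, minus strand): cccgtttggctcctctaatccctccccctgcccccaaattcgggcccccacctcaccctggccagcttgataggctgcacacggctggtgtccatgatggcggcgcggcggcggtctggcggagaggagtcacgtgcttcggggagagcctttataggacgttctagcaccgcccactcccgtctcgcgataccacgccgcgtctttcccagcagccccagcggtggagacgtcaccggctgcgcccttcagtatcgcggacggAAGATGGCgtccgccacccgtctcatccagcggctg
NDUFA12 (chr12:95003648-95003947, minus strand): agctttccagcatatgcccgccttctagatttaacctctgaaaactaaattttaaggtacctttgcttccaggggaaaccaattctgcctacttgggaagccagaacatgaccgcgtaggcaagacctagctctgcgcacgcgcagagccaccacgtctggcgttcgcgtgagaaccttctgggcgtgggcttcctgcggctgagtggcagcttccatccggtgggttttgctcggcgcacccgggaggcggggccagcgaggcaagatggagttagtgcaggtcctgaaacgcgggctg
ATP5ME (chr4:674227-674526, minus strand): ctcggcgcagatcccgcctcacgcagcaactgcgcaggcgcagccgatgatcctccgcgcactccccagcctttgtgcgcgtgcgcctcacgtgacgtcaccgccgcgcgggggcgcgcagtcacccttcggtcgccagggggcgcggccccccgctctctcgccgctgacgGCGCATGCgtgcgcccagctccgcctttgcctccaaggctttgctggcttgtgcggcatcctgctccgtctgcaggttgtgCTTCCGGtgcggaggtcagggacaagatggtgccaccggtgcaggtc
ATP5MC1 (chr17:48892537-48892836, plus strand): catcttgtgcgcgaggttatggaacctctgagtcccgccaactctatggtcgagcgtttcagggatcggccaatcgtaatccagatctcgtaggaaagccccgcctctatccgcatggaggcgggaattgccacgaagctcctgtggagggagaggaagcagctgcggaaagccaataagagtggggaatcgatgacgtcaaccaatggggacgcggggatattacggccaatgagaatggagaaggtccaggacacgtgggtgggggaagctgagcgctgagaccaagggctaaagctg
The NDUFA7 window held the YY1 letters at base 15 after the start. The ATP5ME window held the NRF1 letters from base -78 and the ETS letters from base 4. Neither NDUFA12 nor ATP5MC1 had any of the 3, which says only that these letters are not in the window. Of the 98 nuclear members 78 had a promoter in the table used. The NRF1 letters stood in 15 of them (19.2%) against 3.27% of 27326 promoters, the ETS letters in 21 (26.9%) against 10.7%, and the YY1 letters in 11 (14.1%) against 3.03%. A match to letters is a description of sequence and not a binding site.

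The first comparison asked how nuclear-encoded members changed with LDB1 knockdown in 6T-CEM. Of 89 members that passed the low-count filter, 29 fell (32.6%) and 0 rose at an edgeR adjusted p under 0.05. Over all 16059 genes tested, 16.2% fell and 15.1% rose. At an unadjusted p under 0.05, 3 members were higher by edgeR, and DESeq2 called 0 higher and 23 lower. The changes were small: the median log2 fold change was -0.113 for the members and 0.003 for all genes tested, and only NDUFA7 passed a 2-fold change, as did 2.39% of all genes downward and 2.74% upward. The count of fallen members was lower whichever library was left out. Such a fit keeps 1 library in a group, which weakens the test for every gene. The share of all genes in these fits was not computed. The median log2 fold change of the members then lay between -0.139 and -0.067.

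In J.gamma1 the nuclear-encoded members moved both ways. Of 90 tested, 19 rose (21.1%) and 23 fell (25.6%), where 25.0% of all 17215 genes rose and 26.5% fell, so both shares lay close to the background. The median was 0.009 for the members and 0.00 for all genes. Past 2-fold, 1 member rose (NDUFAF8) and 2 fell (NDUFA7 and COX6B2), against 6.67% and 7.19% of all genes.

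Set side by side, 11 of the 89 members tested in both lines fell in both, where 10.5% of all 14902 genes tested in both lines did. No member rose in both lines, by edgeR at the adjusted threshold, and 9.11% of all genes did. ATP5ME and NDUFV2 fell in 6T-CEM and rose in J.gamma1, a pattern seen in 1.76% of all genes, and 0 members did the reverse, seen in 1.58%. A further 16 members fell in 6T-CEM without a call in J.gamma1, and 17 rose and 11 fell in J.gamma1 without a call in 6T-CEM. Neither line gave a call for 32. Shares of all genes were not computed for the counts of 16, 17, 11 and 32.

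**Figure D1:**
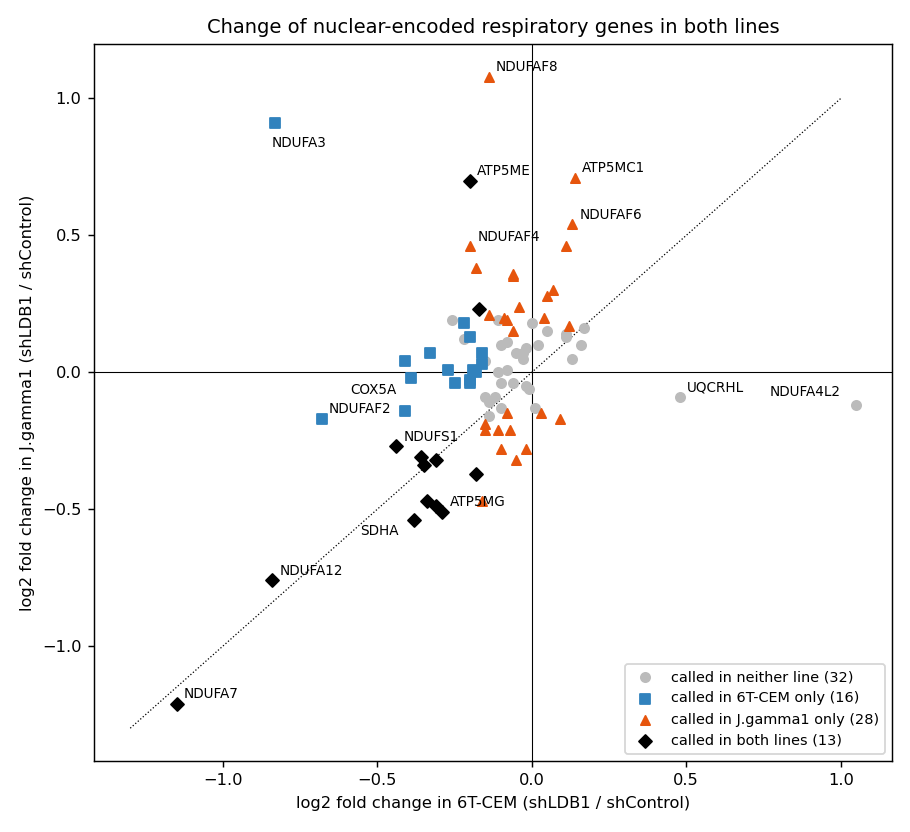
Log2 fold change of each of the 89 nuclear-encoded members tested in both lines, 6T-CEM on the horizontal and J.gamma1 on the vertical axis, with the mark showing in which line a member was called at an adjusted p under 0.05; the dotted line is equality. NDUFA7 and NDUFA12 lie far down near the dotted line, and ATP5ME, ATP5MC1 and NDUFAF8 lie high for J.gamma1 with 6T-CEM values of -0.20, 0.14 and -0.14.

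Complex I, the entry point for electrons from NADH, held the 2 deepest falls shared by the lines. NDUFA7, an accessory subunit (chromosome 19, 8308768 to 8321375), was at 50.4 and 51.7 CPM in 6T-CEM shControl and 23.9 and 21.9 CPM with shLDB1. In J.gamma1 it was at 46.2 and 49.6 CPM against 20.2 and 21.0 CPM. All 4 shLDB1 libraries were far below all 4 shControl libraries, and 44.9% and 43.0% of the shControl level was left. The log2 fold change was -1.15 (SE 0.0864, edgeR adjusted p = 1.71e-07) and -1.21 (SE 0.0794, adjusted p = 5.78e-07), and the difference between the lines was -0.06 (95% interval -0.31 to 0.18). NDUFA7 shares 68 exon bases with RPS28, a ribosomal protein gene on the opposite strand, and whether counting used the strand is not given. RPS28 had a log2 fold change of -0.01 (adjusted p = 0.882) in 6T-CEM and rose by 0.24 (adjusted p = 0.0217) in J.gamma1.

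NDUFA12, another accessory subunit of complex I (chromosome 12, 94895297 to 95003748), was at 77.4 and 74.6 CPM in 6T-CEM shControl and 41.4 and 43.5 CPM with shLDB1. The J.gamma1 libraries stood at 57.9 and 59.9 CPM against 34.1 and 35.1 CPM. The groups were well apart in each line, with 55.9% and 58.7% of the level left. The log2 fold change was -0.84 (SE 0.0733, adjusted p = 8.21e-07) in 6T-CEM and -0.76 (SE 0.0705, adjusted p = 7.24e-06) in J.gamma1.

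Other complex I subunits that fell in both lines did so by less. NDUFS1, the large iron-sulfur subunit of the core, fell by 0.44 and 0.27 on the log2 scale in 6T-CEM and J.gamma1. The core subunit NDUFS7, which carries the last iron-sulfur cluster before ubiquinone, fell by 0.35 and 0.34. Among accessory subunits, NDUFA10 fell by 0.36 and 0.31, NDUFA8 by 0.34 and 0.47, and NDUFS4, mutated in inherited complex I deficiency, by 0.31 and 0.49. The 6T-CEM call of NDUFS4 was lost without shControl replicate 1. Of the 7 nuclear core subunits, 5 fell in 6T-CEM, and 2 fell and 2 rose in J.gamma1. Of the 30 accessory subunits, 11 fell (36.7%) and 0 rose in 6T-CEM (edgeR), and 9 fell (30.0%) and 4 rose (13.3%) in J.gamma1. Of all genes, 16.2% fell and 15.1% rose in 6T-CEM, and 26.5% fell and 25.0% rose in J.gamma1.

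Some falls were found in 6T-CEM without a call in J.gamma1. NDUFS6, an accessory subunit, was at 134 and 130 CPM in 6T-CEM shControl against 97.1 and 101 CPM with shLDB1, and at 75.5 and 76.7 against 76.1 and 80.2 CPM in J.gamma1. It fell by 0.41 in 6T-CEM (adjusted p = 0.000128), its J.gamma1 value was 0.04 (adjusted p = 0.558), and the 2 changes differed (0.45, SE 0.0761, adjusted p = 0.00106). The core subunit NDUFS3 fell by 0.41 in 6T-CEM with a J.gamma1 value of -0.14, and here the difference of 0.27 did not pass (adjusted p = 0.122). NDUFS3 shares exon bases with CELF1 on the opposite strand and with PTPMT1 on its own. NDUFA3 fell by 0.83 in 6T-CEM (adjusted p = 0.00448) from low levels, 7.16 and 8.24 CPM against 4.19 and 4.48 CPM, a call lost without shControl replicate 2 and in 1 fit to all 8 libraries. It shares 150 exon bases with TFPT on the opposite strand. Its J.gamma1 libraries ran from 0.476 to 10.5 CPM with both groups overlapping, and no change could be read there. NDUFA6 was called lower in J.gamma1 only (log2 -0.47, adjusted p = 0.00169), with a 6T-CEM value of -0.16 and a difference of -0.31 that did not pass (adjusted p = 0.117).

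NDUFV2, a core subunit on the NADH side that carries an iron-sulfur cluster, moved in opposite directions. It was at 167 and 167 CPM in 6T-CEM shControl against 148 and 147 CPM with shLDB1, and at 124 and 124 against 144 and 145 CPM in J.gamma1. The log2 fold changes were -0.17 (adjusted p = 0.0291) and 0.23 (adjusted p = 0.00218), and their difference of 0.40 passed (SE 0.0633, adjusted p = 0.000721). The 6T-CEM call was lost with library size alone as the scale and without any 1 of its 4 libraries.

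Complex I assembly factors held the largest rise of a member in J.gamma1. In that line 4 of 8 rose and 0 fell by edgeR, against 25.0% and 26.5% of all genes. In 6T-CEM 1 of 8 fell (12.5%) and 0 rose, against 16.2% and 15.1% of all genes. NDUFAF8 (chromosome 17, 81239305 to 81241310), a partner of the assembly factor NDUFAF5, was at 10 and 10.9 CPM in J.gamma1 shControl and 20.8 and 23.4 CPM with shLDB1. In 6T-CEM it was at 33.8 and 27.8 against 25.7 and 30.3 CPM, with the groups overlapping. It rose by 1.08 on the log2 scale in J.gamma1 (SE 0.116, adjusted p = 2.05e-05), the 6T-CEM value was -0.14 (adjusted p = 0.42), and the difference was 1.22 (SE 0.177, adjusted p = 0.000413). Its level with shLDB1 in J.gamma1 was still under every 6T-CEM library. NDUFAF4 rose in J.gamma1 from 26.8 and 25.4 to 35.6 and 36.0 CPM (log2 0.46), the 6T-CEM value was -0.20 (adjusted p = 0.0631), and the difference was 0.66 (adjusted p = 0.000691). NDUFAF6 rose by 0.54 in J.gamma1, and it shares exon bases with TP53INP1 and PLEKHF2. NDUFAF2 went the other way, from 52.9 and 46.5 to 32.3 and 29.4 CPM in 6T-CEM (log2 -0.68, adjusted p = 4.48e-05), with a J.gamma1 value of -0.17 (adjusted p = 0.246) and a difference of 0.52 (adjusted p = 0.0231). The difference was no longer called without 6T-CEM shControl replicate 1, 6T-CEM shLDB1 replicate 2, J.gamma1 shControl replicate 1 or J.gamma1 shLDB1 replicate 2. NDUFC1, an accessory subunit, rose by 0.38 in J.gamma1 and had a 6T-CEM value of -0.18, with a difference of 0.56 (adjusted p = 0.00652). Its 584 exon bases shared with NAA15 on the opposite strand make its counts uncertain.

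Complex II, which links the tricarboxylic acid cycle to the respiratory chain, has 4 subunits, all tested. SDHA, the flavoprotein that oxidizes succinate, was at 189 and 184 CPM in 6T-CEM shControl against 140 and 146 CPM with shLDB1, and at 154 and 169 against 108 and 114 CPM in J.gamma1. It fell in both lines, by 0.38 (adjusted p = 0.000152) and 0.54 (adjusted p = 2.22e-05). SDHC, a membrane anchor, rose by 0.20 in J.gamma1 (adjusted p = 0.0106) and was at 0.04 in 6T-CEM. That rise was lost without shControl replicate 2 or without shLDB1 replicate 1.

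Complex III, the cytochrome bc1 complex, passes electrons from ubiquinol to cytochrome c. UQCRC2, a core scaffold protein, fell by 0.31 and 0.32 in 6T-CEM and J.gamma1, from 228 and 218 to 176 and 182 CPM in 6T-CEM. UQCRC1, its partner, was at 237 and 233 CPM in J.gamma1 shControl and 200 and 218 CPM with shLDB1. It fell by 0.17 there (adjusted p = 0.0198), had a 6T-CEM value of 0.09, and the difference of -0.26 passed (adjusted p = 0.0332). The J.gamma1 call was lost without shControl replicate 1 or shLDB1 replicate 1 and without the low-count filter. In all, 1 of 9 nuclear complex III members fell in 6T-CEM (11.1%) and 4 fell in J.gamma1 (44.4%), with 0 rises by edgeR in either line. Among all genes, 16.2% fell and 15.1% rose in 6T-CEM, and 26.5% fell and 25.0% rose in J.gamma1.

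Complex IV, cytochrome c oxidase, hands the electrons to oxygen. COX5A, a matrix-side subunit, was at 149 and 152 CPM in 6T-CEM shControl and at 115 and 115 CPM with shLDB1, and at 83.7 and 84.3 against 80.4 and 84.4 CPM in J.gamma1. It fell by 0.39 in 6T-CEM (adjusted p = 0.00015), the J.gamma1 value was -0.02 (adjusted p = 0.777), and the changes differed by 0.36 (adjusted p = 0.00301). COX7C, a small membrane subunit, fell in both lines, by 0.18 and 0.37, with the 6T-CEM call lost without either shControl library or shLDB1 replicate 1. COX8A was called in J.gamma1 only (log2 -0.28, adjusted p = 0.00168) with a value of -0.02 in 6T-CEM and a difference of -0.26 (adjusted p = 0.0271). NDUFA4, once assigned to complex I and now to complex IV, rose by 0.30 in J.gamma1 (adjusted p = 0.00102), with a 6T-CEM value of 0.07. Of 12 nuclear complex IV members, 3 fell in 6T-CEM (25.0%, against 16.2% of all genes). In J.gamma1 4 fell (33.3%, against 26.5%) and 1 rose (8.33%, against 25.0%).

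The tissue-restricted forms of complex IV subunits were nearly silent. COX4I2, COX6A2, COX7A1 and COX7B2 had 0 counts in all 8 libraries, and COX8C had at most 3 counts. COX6B2, known from testis, had 0 counts in 6T-CEM. In J.gamma1 it had 22 and 18 counts in shControl and 0 in both shLDB1 libraries, which against a floor of 3 counts over the group is at least 11.8-fold lower. NDUFA4L2, a hypoxia-induced relative of NDUFA4, was at 3.59 and 4.31 CPM in J.gamma1 shControl and 0.462 and 0.408 CPM in 6T-CEM shControl, and did not pass the test with shLDB1 in either line. It shares 33 exon bases with the far more abundant SHMT2. ATP5MGL and the read-through transcripts ATP5MF-PTCD1 and NDUFC2-KCTD14 had at most 3, 28 and 5 counts and were not tested.

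Complex V, the ATP synthase, makes ATP as protons flow back through it. Of 18 nuclear members tested, 7 fell and 0 rose in 6T-CEM (edgeR), whereas 7 rose and 2 fell in J.gamma1, and 8 had a more positive change in J.gamma1 by the test of the difference. Of all genes, 16.2% fell and 15.1% rose in 6T-CEM, 25.0% rose and 26.5% fell in J.gamma1, and 12.0% had a more positive change there. ATP5ME was the 1 member of complex V called in opposite directions. ATP5ME, a membrane-domain subunit (chromosome 4, 672436 to 674330), was at 34.8 and 38.8 CPM in J.gamma1 shControl and 61.3 and 57.6 CPM with shLDB1. In 6T-CEM it was at 73.1 and 77.3 CPM against 65.8 and 64.9 CPM. The log2 fold change was 0.70 in J.gamma1 (SE 0.0787, adjusted p = 3.08e-05) and -0.20 in 6T-CEM (SE 0.0689, adjusted p = 0.04), with a difference of 0.89 (SE 0.101, adjusted p = 6.98e-05). The 6T-CEM call was lost under DESeq2, without the filter, in 1 fit to all 8 libraries, with library size alone as the scale and without any 1 of its 4 libraries. MYL5 overlaps 571 exon bases of ATP5ME on the opposite strand, at a mean of 90.4 counts against 1687 for ATP5ME.

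ATP5MC1 (chromosome 17, 48892765 to 48895871), 1 of 3 genes for the rotating c subunit, was at 39.0 and 43.5 CPM in J.gamma1 shControl and 64.0 and 70.0 CPM with shLDB1. In 6T-CEM its groups were at 92.8 and 77.9 against 93.9 and 93.3 CPM, 1 shControl library being close to the shLDB1 libraries. It rose by 0.71 in J.gamma1 (SE 0.0784, adjusted p = 2.73e-05), the 6T-CEM value was 0.14 (adjusted p = 0.219), and the difference was 0.57 (SE 0.123, adjusted p = 0.00559). ATP5MG, subunit g of the membrane domain, fell in both lines, from 207 and 213 to 163 and 180 CPM in 6T-CEM (log2 -0.29, adjusted p = 0.00232) and from 179 and 200 to 132 and 134 CPM in J.gamma1 (log2 -0.51, adjusted p = 3.06e-05).

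**Figure D2:**
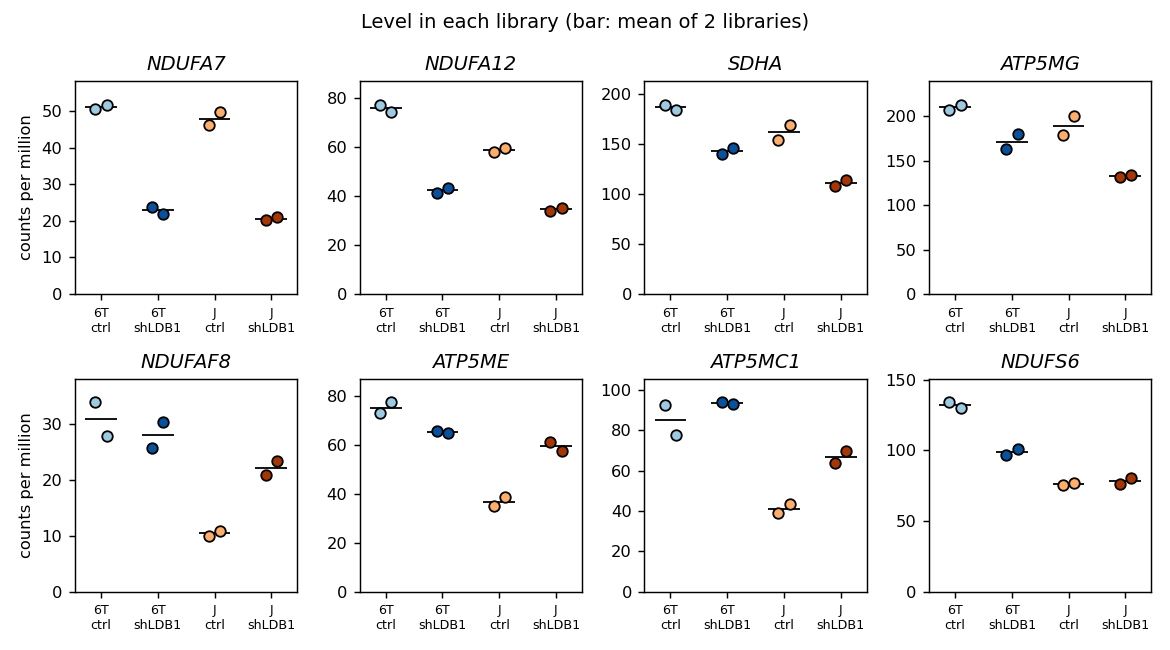
Level (vertical axis, CPM) of 8 nuclear-encoded members in each library, with 1 point per library and a bar at the mean of the 2 libraries of a group (6T for 6T-CEM, J for J.gamma1, ctrl for shControl). NDUFA7 and NDUFA12 fell in both lines, NDUFAF8, ATP5ME and ATP5MC1 rose in J.gamma1, and NDUFS6 fell in 6T-CEM with J.gamma1 levels of 75.5 to 80.2 CPM in all 4 libraries.

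The test of the difference between the lines, in 1 fit to all 8 libraries, called 21 of 90 nuclear members with a more positive change in J.gamma1 (12.0% of all 18552 genes) and 2 with a more negative one (12.4% of all genes). The 2 were UQCRC1 and COX8A. The median difference was 0.107 for the members and -0.008 for all genes. Of the 16 members that fell in 6T-CEM without a call in J.gamma1, 8 passed the test of the difference. Of the 28 called in J.gamma1 without a call in 6T-CEM, 13 did. Both sets were picked by calls in these same libraries, which favours passing. The share among all genes with such calls was not computed. The count of 21 dropped to 11 without J.gamma1 shLDB1 replicate 2, and to 14 or more without any other single library. The count of 2 dropped to 0 without 6T-CEM shControl replicate 2, J.gamma1 shControl replicate 2 or J.gamma1 shLDB1 replicate 1, and to 1 without 6T-CEM shControl replicate 1 or 6T-CEM shLDB1 replicate 2. This comparison shares its shControl libraries with the one between the control cells that follows.

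Control cells of the lines already differed in these genes. The line and any batch it was prepared in cannot be told apart, here or in the difference of the changes. In the shControl libraries 61 of 90 nuclear members were lower in J.gamma1 than in 6T-CEM (67.8%) and 11 were higher (12.2%), against 31.1% and 34.6% of all genes. The median log2 difference was -0.379 for the members and 0.045 for all genes. In complex V 16 of 18 were lower, in the nuclear core of complex I 4 of 7 and among its accessory subunits 20 of 30. The lowest were NDUFAF8 (log2 -1.56, SE 0.128), NDUFAF7 (-1.52), NDUFAF2 (-1.40), NDUFB8 (-1.34) and NDUFAF4 (-1.15), so 4 of the 5 were assembly factors. NDUFB8, an accessory subunit often probed as a sign of assembled complex I, was at 198 and 176 CPM in 6T-CEM against 72.3 and 75.7 CPM in J.gamma1. It shares exon bases with HIF1AN, and NDUFAF7 shares them with PRKD3. The 5 highest in J.gamma1 were COX6B2, NDUFA4L2 and, among well-expressed genes, NDUFB5 (log2 0.64), NDUFS5 (0.50) and NDUFAF1 (0.38). With library size alone as the scale, 17 members were higher and 51 lower, and without 6T-CEM shControl replicate 2 the count of higher members was 7.

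**Figure D3:**
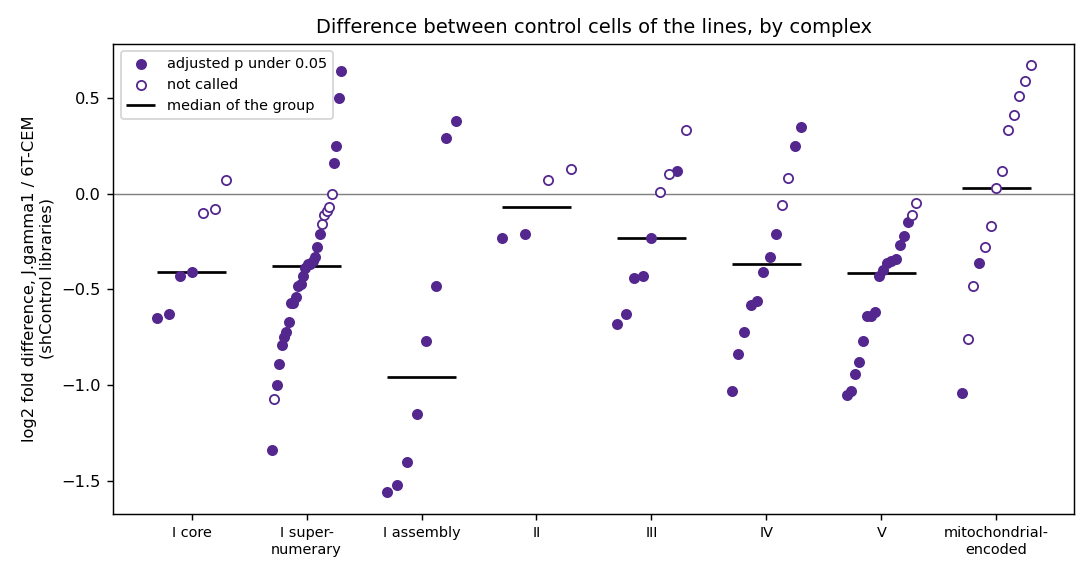
Log2 fold difference of J.gamma1 over 6T-CEM in the shControl libraries (vertical axis) for each tested member, grouped by complex (the 2 tissue forms COX6B2 and NDUFA4L2 are left out), with filled points for an adjusted p under 0.05 and a bar at the group median. Medians of all nuclear groups lie below 0, lowest for assembly factors (-0.961), and that of the 13 mitochondrial-encoded genes lies at 0.032.

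The 13 mitochondrial-encoded members were read apart from the nuclear ones. They encode 7 core subunits of complex I, cytochrome b of complex III, 3 core subunits of complex IV and 2 subunits of complex V. The mitochondrial genome is transcribed as long precursors from both strands and cut into separate messages. All but MT-ND6 lie on 1 strand, with MT-ND1 and MT-ND2 the first messages after the ribosomal RNAs. Some messages overlap. MT-ATP8 and MT-ATP6 share 46 bases and MT-ND4L and MT-ND4 share 7, so a fragment there cannot be assigned to 1 gene. The overlaps (hg38, plus strand) are shown with the shared bases in capitals.
MT-ATP8 and MT-ATP6 (chrM:8522-8577): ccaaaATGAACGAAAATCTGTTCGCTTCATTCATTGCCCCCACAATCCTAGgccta
MT-ND4L and MT-ND4 (chrM:10755-10771): ctccaATGCTAAaacta
Per kb of message, the level in 6T-CEM shControl ran from 185 CPM per kb for MT-ND6 to 7210 for MT-CO2. The highest nuclear member was ATP5F1B, the catalytic beta subunit of ATP synthase, at 735 CPM per kb. MT-ND6 and MT-ND5 (525 CPM per kb) lay below it, and the other mitochondrial-encoded members lay above it. MT-ND5 and MT-ND6 were the lowest of the 13 by this measure in both lines.

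Replicates differed more in these genes than in the nuclear ones. The 13 genes held 2.54% and 3.87% of all counts in 6T-CEM shControl replicates 1 and 2, and 2.83% and 3.27% in 6T-CEM shLDB1. In J.gamma1 they held 3.20% and 3.84% in shControl and 3.10% and 3.48% in shLDB1. Replicate 2 was above replicate 1 in each of the 4 groups, by 1.52 times in 6T-CEM shControl and by 1.12 to 1.20 times in the other 3. For single genes, all 13 were higher in replicate 2 in 3 of the groups and 12 of 13 in 6T-CEM shLDB1. The 98 nuclear members held 1.23% and 1.17% of the counts in 6T-CEM shControl and 1.13% and 1.15% in 6T-CEM shLDB1. In J.gamma1 they held 1.02% and 1.06% in shControl and 1.05% and 1.08% in shLDB1. These gaps were smaller. In J.gamma1, replicate 2 was still higher for 76 of 90 tested nuclear members in each group (median ratio 1.05 in both). In 6T-CEM it was higher for 18 of 89 in shControl (median ratio 0.965) and 56 of 89 in shLDB1 (1.02).

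The share of the mitochondrial-encoded members did not separate the groups. It was 3.21% ± 0.938 (SD, n = 2) in 6T-CEM shControl and 3.05% ± 0.306 (SD, n = 2) with shLDB1, a ratio of 0.951, and 3.52% ± 0.452 against 3.29% ± 0.267 (SD, n = 2) in J.gamma1, a ratio of 0.935. The exact two-sided permutation test over libraries gave p = 1.0 in 6T-CEM and p = 0.667 in J.gamma1, where 2 against 2 libraries cannot give less than 0.333. The ratio of counts from mitochondrial-encoded to nuclear members was 2.07 and 3.31 in 6T-CEM shControl and 2.50 and 2.85 with shLDB1, and 3.14 and 3.64 against 2.97 and 3.22 in J.gamma1. The 6T-CEM ratio of shares turned with a single control library: it was 0.788 without shControl replicate 1 and 1.20 without shControl replicate 2.

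**Figure D4:**
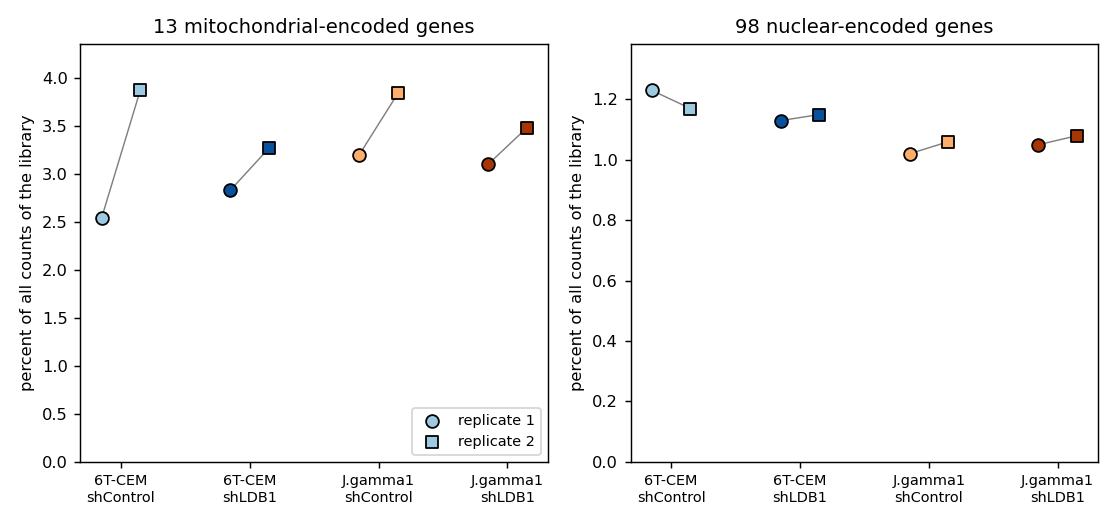
Percent of all counts of a library from the 13 mitochondrial-encoded members (left) and the 98 nuclear-encoded members (right), with a circle for replicate 1 and a square for replicate 2 of each group. On the left replicate 2 stands above replicate 1 in all 4 groups, most in 6T-CEM shControl (2.54% and 3.87%), and the shControl and shLDB1 groups overlap in both lines.

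Gene by gene, 1 of the 13 mitochondrial-encoded members rose in 6T-CEM (7.69%, against 15.1% of all genes) and 2 rose in J.gamma1 (15.4%, against 25.0%). None fell in either line by edgeR at the adjusted threshold, where 16.2% and 26.5% of all genes did. In 6T-CEM only MT-ND6 rose (88.0 and 106 against 133 and 123 CPM, log2 0.40, SE 0.0878, adjusted p = 0.00651), and 0 fell by edgeR, also at an unadjusted p under 0.05 and by DESeq2. In J.gamma1 MT-ND1 rose (732 and 880 against 1070 and 1190 CPM, log2 0.49, SE 0.104, adjusted p = 0.0162), as did MT-ND3 (707 and 815 against 950 and 996 CPM, log2 0.36, SE 0.0636, adjusted p = 0.00151). By edgeR 0 fell there, with 1 lower at an unadjusted p under 0.05 and 0 by DESeq2. These counts depended on the fit: with a term for the replicate number, 5 rose and 4 fell in J.gamma1, and 1 fell in 6T-CEM. Standard errors in 6T-CEM were wide, as for MT-CO1 (log2 -0.18, SE 0.324), whose 95% interval of -1.46 to 1.11 held 2-fold changes in either direction. The median over the 13 was -0.052 in 6T-CEM, but -0.328 without shControl replicate 1 and 0.291 without shControl replicate 2. Without shControl replicate 1 4 members fell in 6T-CEM, and without shControl replicate 2 4 rose. In J.gamma1 6 fell without shControl replicate 1 and 7 rose without shControl replicate 2. The call of MT-ND6 was lost without 6T-CEM shLDB1 replicate 1, that of MT-ND1 without J.gamma1 shLDB1 replicate 2, and those of MT-ND1 and MT-ND3 in 1 fit to all 8 libraries.

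No mitochondrial-encoded member was called for a difference between the lines in its change, by edgeR at the adjusted or unadjusted threshold or by DESeq2. Of all genes, 12.0% had a more positive change in J.gamma1 and 12.4% a more negative one. Most intervals were wide, as for MT-CO1 (-0.11, 95% interval -1.11 to 0.9), so large differences could be missed. Between control cells, MT-ND1 was lower in J.gamma1 (732 and 880 against 1310 and 2010 CPM, log2 -1.04, adjusted p = 0.019) and so was MT-ND3 (log2 -0.36, adjusted p = 0.0459). These were 15.4% of the 13, against 31.1% of all genes, and 0 were higher, against 34.6%. With library size alone as the scale 1 was lower and 1 higher, and in a fit to the 4 shControl libraries alone 0 were lower. Without 6T-CEM shControl replicate 1 5 were lower, without 6T-CEM shControl replicate 2 4 were higher, and without J.gamma1 shControl replicate 1 and replicate 2 0 and 1 were lower.

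Taking each gene as a share of the sum of the 13 narrowed the gap between replicates, and the ratio of replicate 2 to replicate 1 then lay between 0.785 and 1.07. MT-ND1 made up 4.84% and 4.84% of the sum in 6T-CEM shControl and 6.12% and 5.91% with shLDB1. In J.gamma1 it made up 2.38% and 2.36% against 3.70% and 3.60%, so its share with shLDB1 was 1.24 times that in shControl in 6T-CEM and 1.54 times in J.gamma1. MT-ND2 made up 5.68% and 5.51% against 7.59% and 7.26% in 6T-CEM, and 4.07% and 4.01% against 5.62% and 5.70% in J.gamma1, or 1.33 and 1.40 times. MT-ND3 was at 1.19 and 1.40 times its shControl share, and MT-ND6, the single message of the other strand, at 1.40 and 1.20 times.

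Of the 3 messages of complex IV, MT-CO1 and MT-CO2 had smaller shares with shLDB1 in both lines. MT-CO2 made up 14.3% and 14.5% of the sum in 6T-CEM shControl against 12.4% and 13.3%, and 18.2% and 18.4% against 15.5% and 15.7% in J.gamma1, which is 0.891 and 0.853 times. MT-CO1, the largest of all, was at 0.956 and 0.898 times its shControl share. MT-CO3 was at 0.885 times in 6T-CEM and 1.05 times in J.gamma1. MT-ATP8 and MT-ATP6 were at 1.04 and 1.02 times in 6T-CEM and 1.16 and 1.17 times in J.gamma1, MT-ND5 at 1.10 and 1.09 times, and MT-CYB at 1.03 and 1.04 times. MT-ND4 and MT-ND4L were at 1.02 and 1.05 times in 6T-CEM and 0.922 and 0.932 times in J.gamma1.

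By this measure the shLDB1 libraries did not overlap the shControl libraries for any of the 13 genes in either line, 10 higher and 3 lower in 6T-CEM and 9 higher and 4 lower in J.gamma1, with the same direction in both lines for 10. On the CPM scale, the shLDB1 libraries of 32.1% of all genes tested in 6T-CEM were both higher and of 33.2% both lower than the shControl libraries, and of 37.3% and 38.6% in J.gamma1. On that same scale 1 of the 13 was apart in 6T-CEM, MT-ND6, which was higher, and 7 were apart in J.gamma1, 3 higher and 4 lower. Shares of a fixed sum depend on each other, so a rise of some forces a fall of others, and no test was made of them. Nuclear copies of mitochondrial genes on chromosome 1 resemble them closely enough to share reads, and how such reads were counted is not given: MTATP6P1 had 11067 to 18227 counts, and MTND2P28 and MTCO1P12 had 3926 to 7266.

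**Figure D5:**
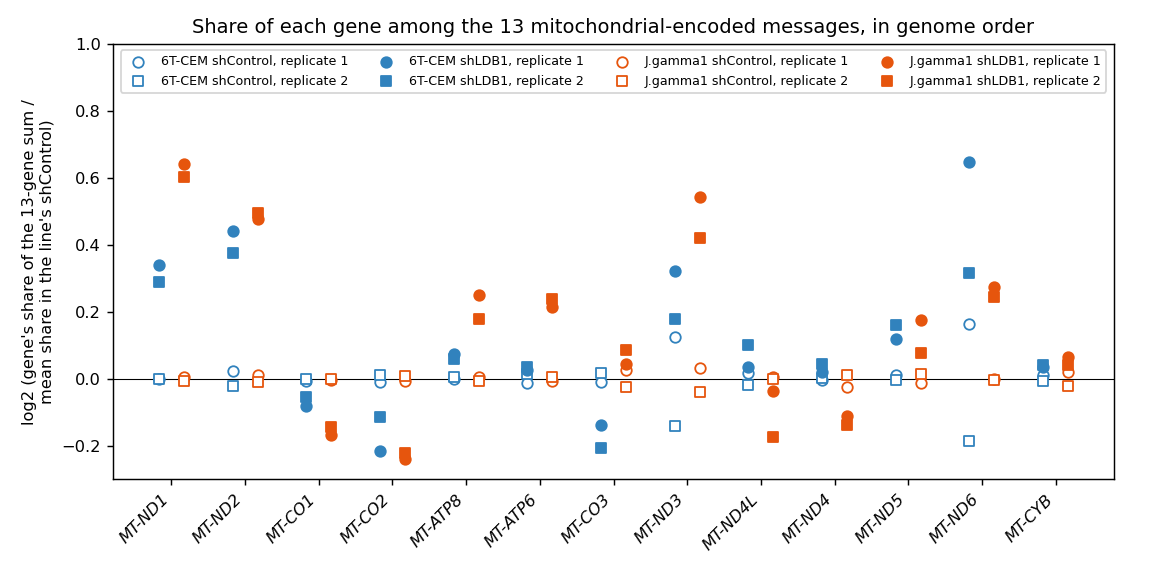
Share of each gene among the 13 mitochondrial-encoded messages in each library, as log2 of its ratio to the mean share in shControl of the same line, with genes in genome order (open marks shControl, filled marks shLDB1, circles replicate 1, squares replicate 2). Filled marks lie above 0 for MT-ND1, MT-ND2, MT-ND3 and MT-ND6 and below 0 for MT-CO1 and MT-CO2 in both lines.

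Genes that serve oxidative phosphorylation from outside the rule were described by list, and their counts stand beside 15.1% of all genes that rose and 16.2% that fell in 6T-CEM, and 25.0% and 26.5% in J.gamma1. Of 11 regulators of mitochondrial biogenesis tested, 5 rose and 2 fell in 6T-CEM and 7 rose and 0 fell in J.gamma1 (edgeR). MYC, a driver of growth and mitochondrial genes, was at 428 and 432 against 310 and 328 CPM in 6T-CEM and at 150 and 153 against 218 and 222 CPM in J.gamma1. It fell by 0.43 on the log2 scale in 6T-CEM and rose by 0.54 in J.gamma1, with a difference of 0.97 (SE 0.0634, adjusted p = 1.49e-06). PPRC1, a coactivator of the PGC-1 family, rose by 1.01 in J.gamma1 (adjusted p = 5.99e-07) and was at 0.09 in 6T-CEM (adjusted p = 0.345). PPARGC1B, of the same family, rose by 0.88 in J.gamma1 with a 6T-CEM value of -0.10, while PPARGC1A had at most 0.19 CPM and was not tested. NRF1 rose by 0.27 in 6T-CEM and 0.22 in J.gamma1. GABPA rose by 0.50 in J.gamma1 and was at 0.03 in 6T-CEM, and it shares 692 exon bases with the member ATP5PF.

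Of 29 genes that keep, transcribe and process mitochondrial DNA and RNA, 4 rose and 7 fell in 6T-CEM, and 15 rose and 1 fell in J.gamma1. TFAM, which packages mitochondrial DNA, rose by 0.52 in J.gamma1 and had a 6T-CEM value of 0.09. POLRMT, the mitochondrial RNA polymerase, rose by 0.23 in 6T-CEM and 0.70 in J.gamma1. HSD17B10, a part of the mitochondrial RNase P, rose by 0.28 and 1.20. POLG, the DNA polymerase of the mitochondrion, was the 1 that fell in J.gamma1, from 232 and 231 to 110 and 110 CPM (log2 -1.07), and its 6T-CEM value was -0.03.

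The tricarboxylic acid cycle supplies the electrons. Its list here also held pyruvate dehydrogenase genes (PDHA1, PDHB, DLAT and PDHX) and pyruvate carboxylase (PC). Of the 20 listed genes tested 11 fell and 0 rose in 6T-CEM (edgeR), and 9 fell and 5 rose in J.gamma1. FH, fumarate hydratase, fell by 0.41 in 6T-CEM and 1.29 in J.gamma1. Of 41 assembly factors outside the rule, 1 rose and 9 fell in 6T-CEM and 14 rose and 7 fell in J.gamma1. A list of 22 genes held electron carriers and nucleotide exchangers, with ubiquinone synthesis enzymes, the phosphate carrier SLC25A3 and VDAC channels. Of these 22, 3 rose and 8 fell in 6T-CEM and 7 rose and 5 fell in J.gamma1.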

How the data were processed

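RNA of 8 libraries was measured, 2 per group. Reads (150 bp, paired) had been mapped on hg38 by the authors, using HISAT2 2.2.0, with StringTie for quantification. They deposited whole-number counts per gene, 1 table per line, without normalization or pooling. How multi-mapped reads were counted is not given in the sources used here.

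Of 64252 gene IDs 56105 were matched to a symbol, and coordinates came from GENCODE release 44 (hg38). Each line was fitted alone with edgeR 4.0.16 (R 4.3.3) by its quasi-likelihood test, with TMM scaling, filterByExpr and p-values adjusted after Benjamini and Hochberg across every tested gene. Differences between lines and between control cells came from 1 fit to all 8 libraries. Calls needed an adjusted p below 0.05. CPM was computed with TMM scaling. Standard errors were derived from the F statistic. Alternatives were DESeq2 1.42.0, other scalings, filters and fits, the replicate block and left-out libraries. Replicates varied by 9.68% (6T-CEM) and 9.16% (J.gamma1) beyond counting error, as edgeR's common coefficient. Totals of 26160492 to 30604977 counts set the depth. Steps were tested on simulated data.

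Genes were named by rule: LDB1, all mitochondrial-encoded members, members not tested in either line, the 10 largest called changes per line with at least 50 normalized counts, up to 8 called the same way or opposite ways in both lines, the 5 largest called differences in either direction between lines and between control cells, the extremes of each role, and in other lists 7 regulators and all called beyond a log2 change of 1. Upward extremes of a role not described above were NDUFV1, NDUFA2, UQCRHL and COX7A2L in 6T-CEM (log2 0.12, 0.17, 0.48 and 0.11). UQCR11 was another, in J.gamma1 (log2 0.11). None of them was called in that line. NDUFV1 rose in J.gamma1 (log2 0.17, edgeR adjusted p = 0.0193), a call lost without shControl replicate 2 or shLDB1 replicate 2. ATP5F1B, the mitochondrial ribosomal RNAs and the nuclear copies fall outside the rule and were chosen after their values were seen. Members and lists were chosen with earlier results of these data known. Sequences are those of RefSeq and hg38. The result for 1 gene of the other lists is not reported here.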

Additional observations from a re-analysis of the deposited data

Results flagged for a closer look

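With 2 libraries in a group, no library could be tested as an outlier. The results below are the named members whose change with shLDB1 differed between the lines at an adjusted p under 0.05 in the edgeR fit to all 8 libraries (log2 change in J.gamma1 less that in 6T-CEM). The change was more positive in J.gamma1 for NDUFAF8 (1.22), ATP5ME (0.89), NDUFAF4 (0.66), ATP5MC1 (0.57), NDUFC1 (0.56), NDUFAF2 (0.52), NDUFS6 (0.45), NDUFV2 (0.40) and COX5A (0.36). It was more negative in J.gamma1 for UQCRC1 (-0.26) and COX8A (-0.26). Of these, NDUFAF2 lost the call without any 1 of 4 libraries, and UQCRC1 and COX8A each without any 1 of 6.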

How the results depend on the processing

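Among the named members, no called value changed sign under the scalings, filters, fits and left-out libraries run for it, and members not named were followed by their counts only. With library size as the only scale, 19 nuclear members fell and 2 rose in 6T-CEM (median -0.073), 17 were higher in J.gamma1 control cells, and 1 mitochondrial-encoded member was higher and 1 lower there. In 1 fit to all 8 libraries, 1 nuclear member rose in 6T-CEM and 0 mitochondrial-encoded members rose in J.gamma1. With the 4 shControl libraries alone, 0 mitochondrial-encoded members were lower. A log2 change beyond 1 was passed in 6T-CEM by 1 fallen nuclear and 0 mitochondrial-encoded members, and in J.gamma1 by 1 risen and 2 fallen nuclear and 0 mitochondrial-encoded members. DESeq2 called 4 nuclear members with a more negative change in J.gamma1, and 2 mitochondrial-encoded members higher in its control cells. The cause of these shifts was not tested.

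Same-numbered replicates did not deviate together across 12245 genes (r = -0.079 for 6T-CEM and r = -0.017 for J.gamma1). The main fits held no replicate term, but an r near 0 over all genes cannot exclude pairing. Among the 13 mitochondrial-encoded members replicate 2 was above replicate 1 for 12 or 13 in each group. Among tested nuclear members it was above for 76 of 90 in each J.gamma1 group, and for 18 and 56 of 89 in 6T-CEM shControl and shLDB1. With the replicate block the counts were 29 fallen nuclear members in 6T-CEM, and 19 risen and 25 fallen in J.gamma1. For mitochondrial-encoded members the block gave 1 fallen in 6T-CEM and 5 risen and 4 fallen in J.gamma1, and 4 nuclear members had a more negative change in J.gamma1.

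Leaving out 1 library keeps 1 in its group and weakens the test for every gene. Shares of all genes were not computed for these fits. The ranges were as follows. In 6T-CEM 0 to 1 nuclear members rose and 15 to 20 fell (median -0.139 to -0.067), and 0 to 4 mitochondrial-encoded members rose and 0 to 4 fell (median -0.328 to 0.291). In J.gamma1 13 to 18 nuclear members rose and 17 to 23 fell (median -0.013 to 0.057), and 1 to 7 mitochondrial-encoded members rose and 0 to 6 fell (median -0.151 to 0.149). The test of the difference called 11 to 22 nuclear members more positive and 0 to 3 more negative, and 0 to 1 mitochondrial-encoded members more positive. In control cells 7 to 10 nuclear members were higher and 56 to 60 lower in J.gamma1, and 0 to 4 mitochondrial-encoded members were higher and 0 to 5 lower. The ratio of the mitochondrial share was 0.788 to 1.20 in 6T-CEM and 0.857 to 1.03 in J.gamma1. The 8 members tested in neither line had at most 28 counts, so no change could be read for them.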

Other observations

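Mitochondrial ribosomal proteins, which translate the 13 mitochondrial-encoded members, split between the lines. Of 78 tested, 2 rose and 19 fell in 6T-CEM, where 15.1% of all genes rose and 16.2% fell, and 32 rose and 13 fell in J.gamma1, where 25.0% rose and 26.5% fell. The test of the difference called 25 with a more positive change in J.gamma1 (32.1%, against 12.0% of all genes). It called 2 with a more negative one (2.56%, against 12.4%). MRPL1 was at 16.1 and 12.7 CPM in J.gamma1 shControl and 37.1 and 41.6 CPM with shLDB1 (log2 1.45, SE 0.119, edgeR adjusted p = 6.11e-06), with a 6T-CEM value of -0.18 (adjusted p = 0.133). MRPL54 rose by 1.03 in J.gamma1, and its 6T-CEM value was -0.08. In control cells 54 of the 78 were lower in J.gamma1 than in 6T-CEM (69.2%, against 31.1% of all genes).

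The mitochondrial ribosomal RNAs, which lie before MT-ND1 on the genome, were counted as well. MT-RNR1, the small one, was at 915 and 1070 CPM in J.gamma1 shControl and 1950 and 2240 CPM with shLDB1 (log2 1.09, SE 0.103, adjusted p = 0.00104). In 6T-CEM it was at 541 and 771 against 919 and 969 CPM, all higher with shLDB1, and did not pass (log2 0.53, adjusted p = 0.275). MT-RNR2, the large one, had log2 values of 0.08 and 0.30, neither of which passed. Relative to the sum of the 13 messages, MT-RNR1 was at 1.55 times its shControl value in 6T-CEM and 2.31 times in J.gamma1.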
